A study of Homo sapiens with 4 samples.

Results

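Desmosomes are spot-like cell junctions that rivet neighbouring epithelial cells together and tie the contact to the keratin cytoskeleton. The RNA of 10 genes of this junction was followed in TD cells and in the parental A549 line. The 10 genes were taken by symbol from the rows of the deposited count tables, 10 of 57820 gene rows, and 9 of them passed the filter on low counts, as did 17785 genes in all. TD cells are A549 cells, a human lung adenocarcinoma line, kept on the cytokine TGF-β, added at 2 ng/ml again every 3 days, and they are labelled as mesenchymal-like in shape. Parental A549 cells are labelled epithelial, and no treatment is named for them. Both lines grew in medium with 10% serum, and 2 libraries of each were made from poly(A)-selected RNA. The sources used here do not give the length of the TGF-β treatment, nor whether TD is a clone or the paired libraries are separate cultures. The p-values therefore rest on library-to-library spread alone, which could be technical.

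In a desmosome, cadherins of the desmoglein (DSG) and desmocollin (DSC) families bind those of the next cell. Inside the cell their tails hold the armadillo-repeat proteins plakoglobin (JUP) and the plakophilins (PKP), which recruit desmoplakin (DSP), and desmoplakin anchors the keratin filaments. PERP is a tetraspan membrane protein that p63 can induce, and desmosomes of stratified epithelia need it in the mouse. TGF-β drives epithelial cells toward a mesenchymal state, in which junctions of this kind are typically taken apart. In bulk RNA, a lower share of cells that express a gene and less of its RNA per cell cannot be told apart.

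Libraries held 28237849 and 44133836 gene counts for TD and 26729278 and 29381872 for A549. Levels are CPM, a gene's counts scaled to the size of its library, with TMM factors, and 3 counts, the limit for a gene without any, equal 0.0738 to 0.108 CPM. TD replicate 2 stood apart in the share of its counts in pseudogenes, 0.373%, against 1.11% in TD replicate 1 and 1.13% and 1.15% in the A549 libraries, and results are therefore also given without it. The labels were checked against marker genes. All 6 epithelial markers (CDH1, EPCAM, KRT8, KRT18, KRT19 and ESRP1) were called lower in TD. Their summed levels were 1729 and 2070 CPM in TD and 15321 and 16122 CPM in A549, most of it from KRT8 and KRT18. All 5 mesenchymal markers (CDH2, VIM, FN1, SNAI2 and ZEB1) were called higher in TD, with sums of 2366 and 2682 CPM in TD and 446 and 450.0 CPM in A549. KRT19 alone among these 11 markers lost its call in a setting without 1 library. Of 8 markers of blood, vessel and glial cells, 7 had a row in the tables. CD68 reached 61 counts in a library, CD3E had 0 counts in every library, and the sums were 2.07 and 1.65 CPM in TD and 1.94 and 1.48 CPM in A549.

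Most of the desmosome genes were lower in TD cells, but DSG2, which carries most of the desmosomal cadherin RNA, was higher. DSP, JUP, PKP2, PKP3, PERP and DSC3 fell, all by 2-fold or more. DSG2 rose 1.52-fold. DSC2 and PKP4 were not called, and PKP1 was too scarce to test. A gene was called where the adjusted p of edgeR's quasi-likelihood test was below 0.05. That makes 6 of 9 tested members lower and 1 higher, against 21.4% and 21.6% of all tested genes, and 43% of all tested genes were called in either direction. All 6 falls passed 2-fold, as did the falls of 12.3% of tested genes, while no member rose by 2-fold, as 9.49% of tested genes did. Genes with a mean of at least 5 CPM in either group were called lower in 24.6% of cases. The median log2 change of the 9 tested members was -1.22, beside -0.04 over all tested genes. TD and A549 libraries did not overlap for 8 of the 9 members, and they did not overlap for 74% of all tested genes either, so separation by itself sets no member apart. Leaving out TD replicate 2 or TD replicate 1 gave 6 members lower and 1 higher, and leaving out A549 replicate 1 or A549 replicate 2 gave 5 lower and 1 higher, since DSC3 lost its call. The share of all tested genes called in either direction moved more, to 50.2% without TD replicate 2, 61.7% without TD replicate 1, 23.3% without A549 replicate 1 and 24.1% without A549 replicate 2.

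**Figure D1:**
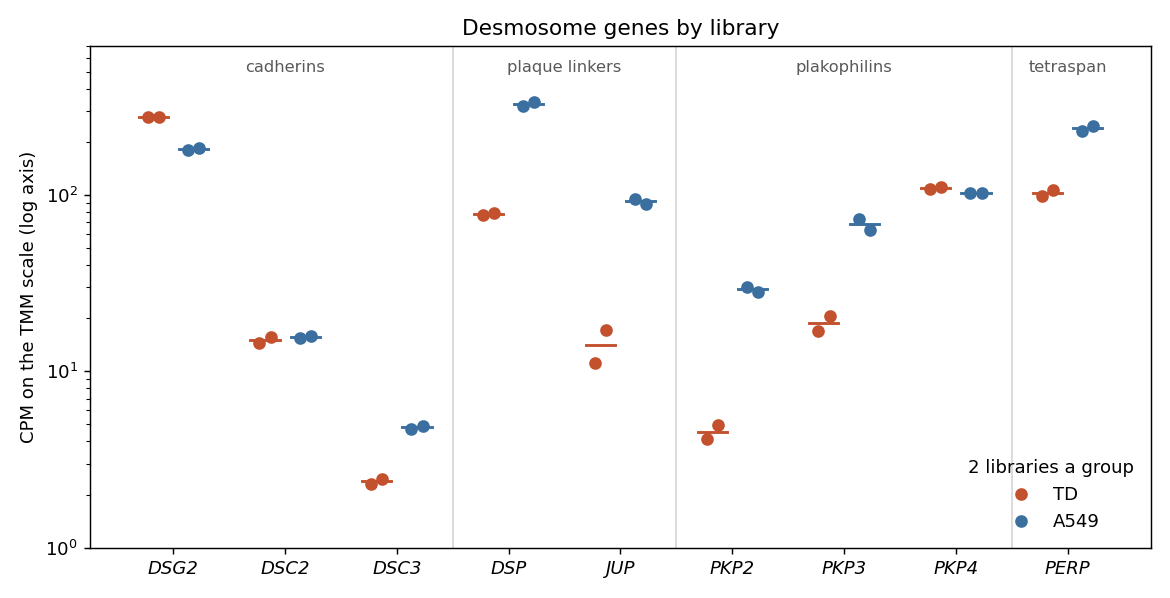
Level of the 9 tested desmosome genes in each library, in CPM on the TMM scale (log axis); points are libraries, short lines the mean of 2, TD left of A549. DSG2 sits higher in TD at 278 and 275 CPM, DSC2 and PKP4 lie side by side in both groups, and the other 6 genes sit lower in TD.

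Promoter sequence was laid beside these directions, because SNAI2 and ZEB1, which bind the E-box CACCTG and were higher in TD, are known repressors of epithelial genes. SNAI2 had 14.1 and 15.6 CPM in TD and 0 counts in both A549 libraries, and ZEB1 had 51.9 and 56.1 CPM in TD and 14.6 CPM in both A549 libraries. RefSeq windows (GRCh38.p14) of 250 bases before to 50 bases from the start site were matched for 8 of the 10 members, in 11 windows. PKP2 and PKP3 had none. The letters CACCTG, read on both strands (CAGGTG on the other), were in 4 of these 11 windows, and in 20.6% of all 35116 windows of the table. The 4 windows with the E-box letters are printed, with those letters in capitals, because they belong to members with all 3 outcomes: DSP and JUP fell, DSG2 rose and DSC2 was not called. The DSP window lies at chr6:7541421-7541720 (+), the DSG2 window at chr18:31497927-31498226 (+), the DSC2 window at chr18:31102372-31102671 (-) and the JUP window, the downstream of its 2 starts, at chr17:41785927-41786226 (-).
DSP: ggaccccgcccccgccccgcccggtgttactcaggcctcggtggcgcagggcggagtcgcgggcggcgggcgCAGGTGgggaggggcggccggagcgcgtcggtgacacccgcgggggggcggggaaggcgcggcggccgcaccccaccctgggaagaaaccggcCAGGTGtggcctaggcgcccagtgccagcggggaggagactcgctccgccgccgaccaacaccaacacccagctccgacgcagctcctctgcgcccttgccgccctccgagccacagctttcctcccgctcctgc
JUP: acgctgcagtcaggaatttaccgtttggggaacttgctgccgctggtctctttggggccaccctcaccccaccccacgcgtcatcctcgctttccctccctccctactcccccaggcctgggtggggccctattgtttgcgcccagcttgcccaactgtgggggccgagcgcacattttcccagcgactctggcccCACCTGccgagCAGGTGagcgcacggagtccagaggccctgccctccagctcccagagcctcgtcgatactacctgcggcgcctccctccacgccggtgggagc
DSG2: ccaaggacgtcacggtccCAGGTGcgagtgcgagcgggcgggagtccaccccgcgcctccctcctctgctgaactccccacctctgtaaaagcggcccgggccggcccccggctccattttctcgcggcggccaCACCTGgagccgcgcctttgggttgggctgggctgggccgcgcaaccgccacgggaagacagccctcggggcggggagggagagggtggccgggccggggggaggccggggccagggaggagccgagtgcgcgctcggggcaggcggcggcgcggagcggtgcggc
DSC2: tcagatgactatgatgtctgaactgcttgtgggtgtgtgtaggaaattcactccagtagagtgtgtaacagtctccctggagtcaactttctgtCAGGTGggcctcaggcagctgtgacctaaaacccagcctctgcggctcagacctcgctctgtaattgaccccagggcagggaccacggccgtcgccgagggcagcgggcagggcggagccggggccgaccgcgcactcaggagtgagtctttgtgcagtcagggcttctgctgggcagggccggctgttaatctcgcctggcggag
Counted from the start site, the capitals begin at -178 and -85 in DSP, at -54 and -43 in JUP, at -232 and -116 in DSG2 and at -156 in DSC2. DSG2, the member that rose, held as many copies as DSP. The windows of DSC3 and PERP, which fell, held none, nor did those of PKP1 and PKP4, the upstream JUP window or the downstream DSC2 window. Among the other motifs searched on both strands, TGANTCA (AP-1) was found in PERP alone, against 7.71% of all windows. AACNGGTT (grainyhead-like factors, 1.73% of windows) and TATAAA (11.5%) were in no member's window. GGGCGG was in 9 of the 11 windows, of 7 members (45% of all windows). CCAAT was in 3 of the 11, of DSC3, PKP4 and JUP (34.6%). A match is a run of letters and not a shown binding site, and whether these letters bear on any change was not tested.

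DSG2, the desmoglein of simple epithelia and of the heart, had 278 and 275 CPM in TD, against 179.5 and 185 CPM in A549 (gene row ENSG00000046604.8, chromosome 18). Both TD libraries lay above both A549 libraries, and libraries of a group differed by far less than the groups did. The log2 change was 0.60 (SE 0.07, adjusted p = 0.00313 by edgeR), and it was not called when tested against a 1.5-fold change (adjusted p = 0.529). The antisense gene DSG2-AS1, which shares 2.76% of the exon bases of DSG2, had 16 and 13 counts in TD and 3 and 4 in A549, few beside the 8066 and 11185 counts of DSG2 in TD and 4997 and 5480 in A549.

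DSC2, the desmocollin found beside DSG2 in simple epithelia, had 14.5 and 15.6 CPM in TD and 15.5 and 15.8 CPM in A549 (ENSG00000134755.10, chromosome 18). The groups overlapped. The change was -0.06 (95% interval -0.29 to 0.18, adjusted p = 0.662 by edgeR), an interval that holds no change as large as that of DSG2. DSC3, a desmocollin of stratified epithelia, had 2.31 and 2.46 CPM in TD and 4.71 and 4.92 CPM in A549 (ENSG00000134762.12, chromosome 18). TD was lower in both libraries, and the log2 change was -1.01 (SE 0.18, adjusted p = 0.00971 by edgeR). DSC3 is the least abundant tested member, with 67 and 100 counts in TD, and its call was lost when A549 replicate 1 (adjusted p = 0.0568) or A549 replicate 2 (0.0646) was left out. When only protein-coding genes entered the fit, its log2 change was -1.07 and -0.998 without these libraries. The call of DSC3 was kept there, where a larger share of all tested genes was called too.

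The desmosomal cadherins lie in a cluster on chromosome 18, on the same chromosome arm as CDH2, the gene of N-cadherin. Of the 8 genes in this region 4 were tested, with 2 higher and 1 lower, against 21.6% and 21.4% of all tested genes. In the cluster DSC3 fell, DSG2 rose and DSC2 was not called, while the 4 cadherins of the epidermis, DSC1, DSG1, DSG3 and DSG4, were at most at 2 counts in any library and were not tested. CDH2 itself had 178 and 197 CPM in TD and 0.431 and 0.539 CPM in A549 (log2 change 8.58, SE 0.15, adjusted p = 3.08e-05 by edgeR). The tested cadherin genes of this chromosome arm thus ranged from a 2.02-fold fall of DSC3 RNA to a large gain of CDH2 RNA.

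DSP, the plakin that links the plaque to keratin, had 77.0 and 79.1 CPM in TD and 320.5 and 334 CPM in A549 (ENSG00000096696.9, chromosome 6). The TD libraries were close to each other and far below both A549 libraries. DSP was 4.19-fold lower (log2 change -2.07, SE 0.08, adjusted p = 8.7e-05 by edgeR), and the change lay between -2.14 and -2.03 in all 18 other settings. JUP, which encodes plakoglobin, had 11.1 and 17.2 CPM in TD and 94.8 and 88.9 CPM in A549 (ENSG00000173801.12, chromosome 17). It was low in both TD libraries, though these differed from each other more than for any other called member. The change was -2.69 (SE 0.22, adjusted p = 0.000893 by edgeR), and it was -3.05 without TD replicate 2 and -2.41 without TD replicate 1.

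Beta-catenin (CTNNB1), the close relative of plakoglobin that serves adherens junctions and WNT signalling, went the other way. It had 346 and 383 CPM in TD and 201 and 191 CPM in A549 (log2 change 0.89, SE 0.09, adjusted p = 0.0018 by edgeR). It was chosen for its relation to JUP, after its values were seen. Per kilobase of exon, the ratio of JUP to CTNNB1 was 0.0775 and 0.108 in the TD libraries and 1.14 and 1.12 in the A549 libraries. By this measure plakoglobin RNA was about as abundant as beta-catenin RNA in the parental line and a small fraction of it in TD. The A549 match depends on the length correction. In plain CPM, JUP (94.8 and 88.9) stood below CTNNB1 (201 and 191) in A549 as well.

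Of the plakophilins, PKP2, which is shared by simple epithelia and heart, had 4.14 and 4.97 CPM in TD and 30.1 and 28.2 CPM in A549 (ENSG00000057294.9, chromosome 12). The groups were far apart, and PKP2 was 6.38-fold lower (log2 change -2.67, SE 0.13, adjusted p = 0.000162 by edgeR). PKP3, a plakophilin of most epithelia, had 16.96 and 20.6 CPM in TD and 73.3 and 63.4 CPM in A549 (ENSG00000184363.5, chromosome 11). Here too both TD libraries were below both A549 libraries, and the change was -1.86 (SE 0.14, adjusted p = 0.000614 by edgeR).

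PKP4, also named p0071, is a more distant relative that is found at adherens junctions as well as desmosomes. It had 108 and 111 CPM in TD and 102 and 103 CPM in A549 (ENSG00000144283.17, chromosome 2). The TD libraries were above the A549 libraries by a narrow margin, and the change of 0.10 was not called (95% interval -0.08 to 0.28, adjusted p = 0.333 by edgeR). PKP1, the plakophilin of stratified epithelia, had 4 and 0 counts in TD and 0 and 1 counts in A549 (ENSG00000081277.7, chromosome 1). At this depth nothing can be said of a difference in PKP1.

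PERP had 98.1 and 106 CPM in TD and 229.6 and 247 CPM in A549 (ENSG00000112378.11, chromosome 6). Both TD libraries were lower, 2.33-fold on average (log2 change -1.22, SE 0.09, adjusted p = 0.000583 by edgeR). TP63, whose product can induce PERP, did not fall with it. TP63 had 3.55 and 3.37 CPM in TD and 0.323 and 0.303 CPM in A549 (log2 change 3.45, SE 0.26, adjusted p = 0.000657 by edgeR). RNA levels do not show the activity of this factor.

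**Figure D2:**
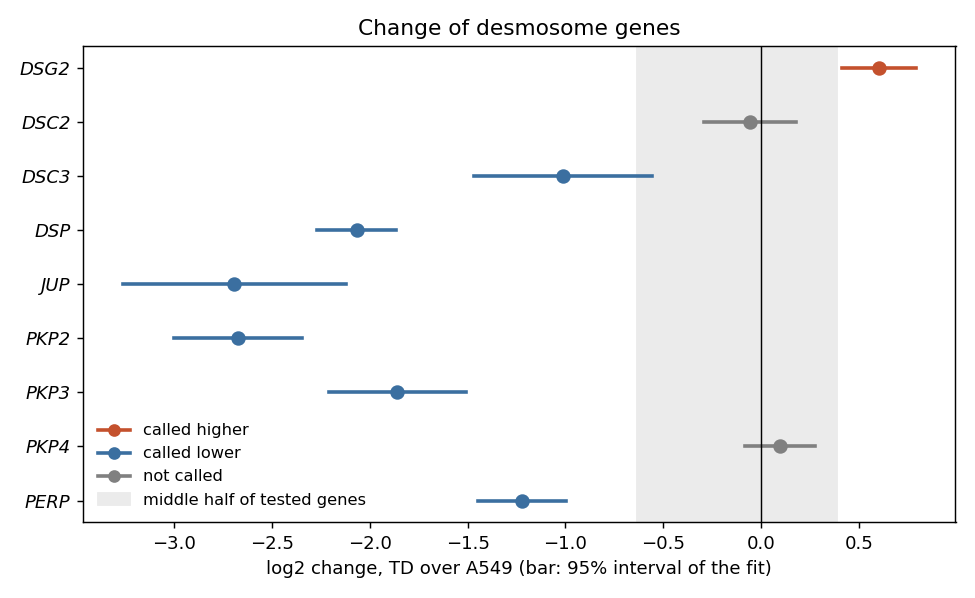
Log2 change of TD over A549 for the 9 tested members (points) with the 95% interval of the fit (bars); grey band, the range between the quartiles of all tested genes. JUP and PKP2 lie lowest at -2.69 and -2.67, DSG2 highest at 0.60, and the intervals of DSC2 and PKP4 span 0.

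Reads could hardly be exchanged between these genes and others. Windows of 75 bases, the read length, were taken from all GENCODE 29 transcripts of each member and looked for in the transcripts of all other genes, on both strands. DSP, JUP, PKP1 and PKP3 shared none. DSC2 and DSC3 shared windows with each other, but no more than 0.0477% of DSC2 windows and 0.624% of DSC3 windows occurred in any other gene. The largest shares were 3.37% for PKP4, all with its antisense gene PKP4-AS1 (19 and 26 counts in TD and 17 and 19 in A549), and 2.44% for PKP2.

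Because the members moved unequally, the make-up of the desmosome transcripts differed between the lines. To compare genes, CPM were divided by kilobases of exon (union of all GENCODE 29 exons, an annotation on GRCh38 that need not match the transcripts these cells use). In TD the order was DSG2 (44.9 and 44.4 CPM per kilobase), PERP, PKP4, DSP, PKP3, JUP, DSC2, PKP2 and DSC3 (0.327 and 0.349), and no neighbours in that order overlapped. In A549 it was PERP (53.5 and 57.6), DSP (31.8 and 33.1), DSG2 (29.003 and 29.8), PKP3, JUP, PKP4, PKP2, DSC2 and DSC3, where only PKP3 (19.3 and 16.7) and JUP (19.2 and 17.999) overlapped. DSG2 thus led in TD and was the third in A549. Without the length correction DSG2 led in TD too, but PKP4 (17.6% of the members' counts) stood above PERP (16.4%) there. DSC2 (2.42%) and JUP (2.27%) then overlapped in TD. In A549 DSP (30.9%) stood above PERP (22.5%), and PKP4 (9.67%) above JUP (8.67%) and PKP3 (6.45%).

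Summed per kilobase, the 10 genes gave 95.6 and 99.9 in TD and 169.7 and 172 in A549. The plaque genes DSP, JUP, PKP1, PKP2 and PKP3 together gave 14.96 and 17.5 in TD and 74.6 and 71.9 in A549. The cadherins DSG2, DSC2 and DSC3 gave 46.4 and 46.0 in TD and 30.9 and 31.8 in A549. The ratio of plaque to cadherin RNA was accordingly 0.323 and 0.379 in TD and 2.41 and 2.26 in A549. PKP4, which was not called, was left out of this plaque sum. With PKP4 the ratio was 0.567 and 0.633 in TD and 2.76 and 2.60 in A549, a sum added after the values were seen. With 2 libraries against 2, an exact two-sided permutation test cannot go below p = 0.333, so these ratios are given without a test.

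Within the cadherins, DSG2 made up 96.8% and 96.5% of the RNA per kilobase in TD and 93.8% in both A549 libraries. DSC2 and DSC3 together stood to DSG2 at 0.0331 and 0.0360 in TD and 0.0657 and 0.0659 in A549. Desmocollin RNA was thus scarce beside desmoglein RNA in both lines, and more so in TD. DSP stood to DSG2 at 0.170 and 0.176 in TD and 1.09 and 1.11 in A549.

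Among the plakophilins, PKP4 took 69.0% and 65.5% of the RNA per kilobase in TD and 31.2% and 34.3% in A549. PKP3 took 27.3% and 30.5% in TD and 56.3% and 53.0% in A549, and PKP2 took 3.57% and 3.96% in TD and 12.5% and 12.7% in A549. PKP4 was therefore the main plakophilin transcript in TD and PKP3 in A549. The A549 order depends on the length correction. In plain counts PKP4 had mean shares of 82.4% in TD and 51.3% in A549, and PKP3 had 14.1% in TD and 34.1% in A549. The TD share of PKP4 was the higher one either way.

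**Figure D3:**
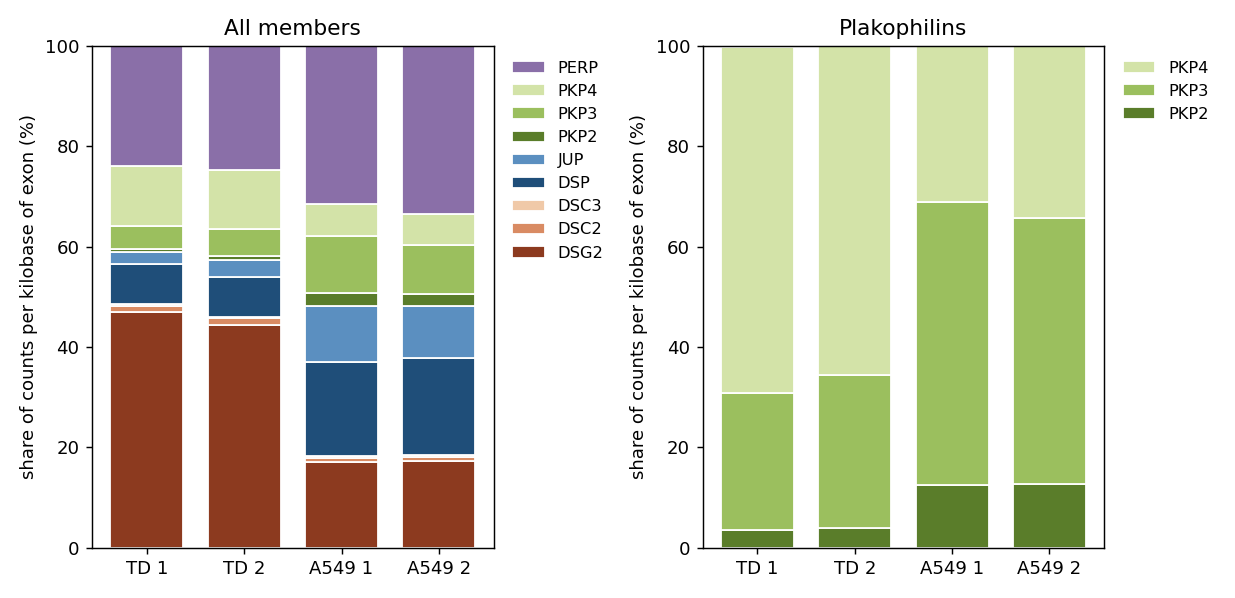
Share of each gene in the summed counts per kilobase of exon (%) in each library, for all members (left) and for the plakophilins (right); PKP1, at most 0.135% of the plakophilins, is not drawn. DSG2 makes up 47.0% and 44.5% of the TD bars and 17.1% and 17.3% of the A549 bars, and PKP4 is the largest plakophilin part in TD.

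The DSG2 level was set beside the classical cadherins, which join cells at adherens junctions. CDH1, E-cadherin, had 2.86 and 3.05 CPM in TD and 189 and 191 CPM in A549 (log2 change -6.00, SE 0.09, adjusted p = 3.08e-05 by edgeR). Per kilobase, DSG2 exceeded CDH1 in TD, with ratios of 97.0 and 90.0, and was close to it in A549, with ratios of 0.950 and 0.964. Against CDH2 the ratio was 1.25 and 1.12 in TD and 333 and 274 in A549. DSG2 and CDH2 RNA were thus of similar level in TD, as DSG2 and CDH1 RNA were in A549.

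Of 14 adherens junction genes, 13 were tested, 6 rose and 3 fell, against 21.6% and 21.4% of all tested genes. Their median log2 change was 0.32. Besides CDH2, NECTIN4, a nectin adhesion receptor, rose to 1.79 and 1.52 CPM in TD, against 0.287 and 0.270 CPM in A549 (adjusted p = 0.0035 by edgeR). Besides CDH1, NECTIN2 fell to 49.5 and 62.1 CPM in TD, against 129 and 124 CPM in A549 (adjusted p = 0.00219 by edgeR). The other members that rose were CTNNB1, NECTIN3, VCL and CTNNA1, and NECTIN1 fell. CTNNA1, the alpha-catenin that links cadherins to actin, lost its call in settings without an A549 library, and VCL, vinculin, lost it without A549 replicate 1 (adjusted p = 0.0504). Without A549 replicate 1, 4 members of this list rose.

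Of 9 other desmosome and envelope genes, 4 were tested and 2 fell, against 21.4% of all tested genes. The list median was -0.77. PPL, periplakin, had 0.276 and 0.320 CPM in TD and 18 and 19.4 CPM in A549 (log2 change -5.94, SE 0.16, adjusted p = 4.44e-05 by edgeR). EVPL, its partner envoplakin, had 26.4 and 27.8 CPM in TD and 71.0 and 55.1 CPM in A549 (log2 change -1.22, SE 0.14, adjusted p = 0.00265 by edgeR). PPL thus fell further than any of the 9 tested members, and EVPL by about as much as PERP. KAZN and PNN were not called, and DSG1, DSG3, DSG4, DSC1 and CDSN were at or near 0 counts.

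Keratins form the filaments that DSP anchors. Of 17 listed, 13 were tested, 10 fell and 1 rose, against 21.4% and 21.6% of all tested genes. The other 2 (KRT7 and KRT15) were not called. The median log2 change was -1.88, also when KRT4 is set at its bound. KRT8, the abundant type II keratin of simple epithelia, had 1241 and 1471 CPM in TD and 9214 and 9709 CPM in A549 (log2 change -2.80, SE 0.14, adjusted p = 0.000204 by edgeR). Its partner KRT18 had 484 and 596 CPM in TD and 5766 and 6063 CPM in A549 (log2 change -3.45, SE 0.15, adjusted p = 0.000134 by edgeR). Both changes were larger than that of DSP, and no library overlapped between the groups.

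KRT4, a keratin of stratified mucosa, had 0 counts in both TD libraries and was at least 248-fold lower (3 counts over the group in place of 0). KRT19 had 0 and 3 counts in TD and 33 and 30 in A549, a ratio of 25.4 by counts (95% interval 8.32 to 127), and its call was lost when A549 replicate 1 (adjusted p = 0.117) or A549 replicate 2 (0.102) was left out. The member that rose was KRT14, at 0.551 and 0.467 CPM in TD and 0.0719 and 0.101 CPM in A549, named after its values were seen. Its call was lost without either A549 library. Without A549 replicate 1, 4 keratins fell, and without A549 replicate 2, 6 did. With protein-coding genes alone more keratins were called lower in these settings, and a larger share of all tested genes was called too.

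Genes that act on desmosome assembly or shedding went both ways, with 6 of 12 tested higher and 4 lower. Over all tested genes the shares were 21.6% and 21.4%, and the list median was 0.22. PRKCA, a protein kinase C known to loosen desmosomes, had 124 and 130 CPM in TD and 65.7 and 64.9 CPM in A549 (log2 change 0.96, SE 0.07, adjusted p = 0.000711 by edgeR). ATP2A2, the calcium pump whose loss disturbs desmosomes in Darier disease, had 550 and 617 CPM in TD and 999.7 and 1024 CPM in A549 (log2 change -0.79, SE 0.10, adjusted p = 0.00333 by edgeR). GRHL1, a grainyhead-like factor that activates desmosomal cadherin genes, had 0.379 and 0.492 CPM in TD and 2.30 and 2.02 CPM in A549 (log2 change -2.29, SE 0.30, adjusted p = 0.00399 by edgeR). Kinase and factor thus differed in direction, and TP63 was the largest rise of the list. GRHL3, a relative of GRHL1, fell too, at 1 and 0 counts in TD and 20 and 26 in A549, a call that was lost when A549 replicate 1 (adjusted p = 0.0854) or A549 replicate 2 (0.101) was left out. Without either A549 library fewer members of this list were called higher, and with protein-coding genes alone more were again. The share of all tested genes called moved the same way.

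**Figure D4:**
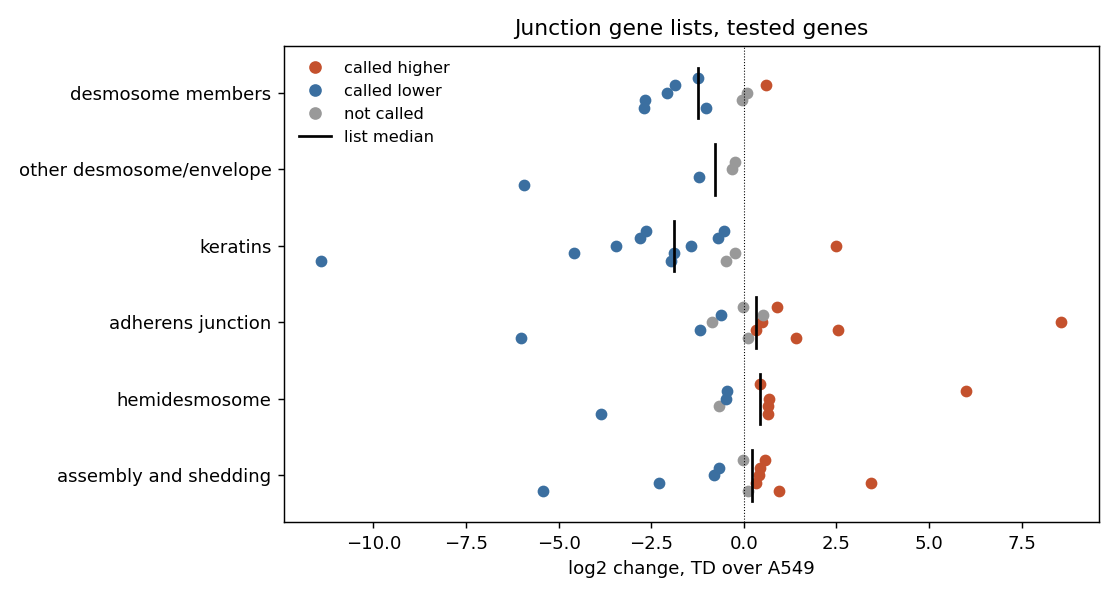
Log2 change of TD over A549 for the tested genes of 6 junction lists (points, coloured by call) with each list's median (black line). Desmosome members (median -1.22) and keratins (-1.88) lie mostly left of 0, while adherens junction genes (0.32) spread to both sides; the leftmost keratin is KRT4, whose fitted value rests on 0 counts in TD and is no measured fold.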

How the data were processed

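The deposited values are raw read counts per gene, 1 table for each library, which the authors did not normalize as far as the values show. FastQC 0.11.8, STAR 2.7.1a, HTSeq 0.11.2 and the build hg19 (GRCh37) are named per the submitters' processing notes. For the strand setting and annotation release, no source used here gives a value. Libraries were strand-specific and read for 75 bases from both ends, per the labels' protocols. Reads given to no gene (6.12% to 7.79% outside genes, 2.34% to 2.56% ambiguous, 8.08% to 9.22% multiply aligned) stayed out of library sizes.

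Of 57820 gene identifiers, 52338 were paired with a symbol. Gene types, exon lengths and transcripts came from GENCODE 29 (GRCh38), and no coordinate of the tables was used. TD was compared with A549 by edgeR 4.0.16 (R 4.3.3), with TMM scaling, the default filter at a minimum count of 10, and p-values adjusted over all tested genes by Benjamini-Hochberg. The standard error (SE) is the fitted change over the root of its F statistic. Replicates were not identical. Across genes, chi-square per degree of freedom was 25.2 between the TD replicates and 7.67 between the A549 replicates. This measure also grows with depth, and TD replicate 2 was the deepest library. Alternatives included DESeq2 1.42.0, limma-voom (limma 3.58.1) and leaving out each library.

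The members and lists were chosen with earlier results of these data known. Every member is described. From each other list, the 2 called genes with the largest change in each direction and at least 1 CPM are named, with all state markers and chromosome 18 cadherins. CTNNB1, KRT14 and other genes named to complete a count were added after their values were seen. The planned comparison of protein sequences was not run. Some list genes that the rule would name are not reported here. PKP1 was not tested, and PECAM1 had no matched row. Intervals of a log2 change come from the edgeR fit and include the spread between libraries, while the interval of a count ratio and the limit of 3 counts cover counting error only.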

Additional observations from a re-analysis of the deposited data

How the results depend on the processing

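Over 18 alternatives, 156 of 161 fitted changes of the 9 tested members kept their direction and their side of the threshold. DSP, JUP, PKP2, PKP3 and PERP were called lower and DSG2 had a positive change in each alternative. DSC3 lost its call without either A549 library and, at an adjusted p of 0.0545, when tested against a 1.5-fold change, and DSG2 lost its call in that last setting too. That setting left 0 members higher and 5 lower, and 1741 genes higher and 2109 lower, fewer by construction. The change of DSC2, never called, ran from -0.11 to 0.0063 when 1 library was left out. The filter of 5 CPM removed DSC3, leaving 5 members lower. Leaving out 1 library gave 5 to 6 members lower, and 2114 to 5329 genes higher and 2236 to 6140 lower, against 3833 and 3809 with all libraries. The coefficient of variation over all genes was 20.1%. It was 34.1% without A549 replicate 1 and 34.0% when A549 replicate 2 was left out. In the same 2 settings with protein-coding genes alone it was 8.06% and 8.11%, and it was 7.08% without either TD library. Without an A549 library this spread came from the TD pair alone, and without a TD library from the A549 pair alone. A call lost without an A549 library was thus judged on the spread of the TD pair. With protein-coding genes alone and 1 library left out, the change of DSC3 ran from -1.07 to -0.998 and that of DSG2 from 0.534 to 0.643. Without an A549 library, that restriction also raised the share of all tested genes called, so a kept call there is not particular to the members. For the 25 other genes named by rule, state markers and CTNNB1 included, 434 of 445 values kept their call, and 11 lost it (KRT19, CD151, LAMB3 and ATP2A2). Genes named to complete a count are not among these 25, and KRT14, CTNNA1, VCL, GRHL3 and NECTIN1 lost calls as well. Scaling by library totals shifted the median change by -0.08. Replicate numbers were not shown to pair the libraries (r = -0.08 between the groups' replicate differences across genes). With the replicate block, 2964 genes were higher and 2847 lower, the members stayed at 1 higher and 6 lower, keratins at 6 lower and hemidesmosome genes at 3 higher.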

Other observations

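Hemidesmosomes, which anchor the same keratin filaments to the basement membrane, were set beside them. All 9 listed genes were tested, 5 rose and 3 fell, against 21.6% and 21.4% of all tested genes. Their median log2 change was 0.45. LAMA3, a laminin alpha chain, had 4.14 and 4.16 CPM in TD and 62.7 and 56.3 CPM in A549 (log2 change -3.84, SE 0.10, adjusted p = 4.38e-05 by edgeR). LAMB3, a laminin beta chain, had 90.5 and 106 CPM in TD and 140 and 135 CPM in A549 (log2 change -0.49, adjusted p = 0.0175 by edgeR). CD151, a tetraspanin, had 670 and 872 CPM in TD and 503 and 458 CPM in A549 (log2 change 0.68, adjusted p = 0.0208 by edgeR). The LAMB3 and CD151 calls were lost when A549 replicate 1 (adjusted p = 0.0637 and 0.0904) or A549 replicate 2 (0.0554 and 0.12) was left out. Without A549 replicate 1 the list had 2 rises and 1 fall, and without A549 replicate 2 it had 3 and 1. With protein-coding genes alone, more genes of the list were called in both settings, as was a larger share of all tested genes.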
